A study of Saccharomyces cerevisiae with 4 samples.

Results

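Of 5738 gene probes on budding yeast arrays, 54 are described here, all spotted for RNAs with no open reading frame name. They were chosen by name, by a rule that used no measured value, though earlier results of these data were known. They comprise 52 probes called MISC_RNA with a number, and the probes for LSR1 and TLC1, all printed as PCR products. LSR1 is the U2 small nuclear RNA, which pairs with the branch site of introns in the spliceosome, and TLC1 is the RNA of telomerase, which carries the template for telomere repeats. The files placed both genes on chromosome 2, TLC1 on the W strand and LSR1 on the C strand. For the MISC_RNA probes they gave no chromosome, strand or description, so these RNAs are called here by probe name only.

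Whi3 is a yeast protein with an RNA recognition motif (RRM), a fold that binds single-stranded RNA, and it is known for holding back the G1 cyclin Cln3. In RNA immunoprecipitation a tagged protein is pulled from a lysate and the RNA that came down with it is compared with total RNA. RNA that sticks to the beads, the tag or other parts of the protein comes down too, so a mutant that lacks the RNA-binding fold serves as the background. Small nuclear RNAs and many unnamed transcripts stay in the nucleus, and a large share of the unnamed ones is removed there by the nuclear exosome. Telomerase RNA exists mostly without a poly(A) tail, and mature U2 RNA has none.

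The study used strains of the W303 background, grown in rich medium (YPD) to log phase. The WHI3-TAP strain made whole Whi3 with a tandem affinity tag from its own promoter, and the control strain, whi3-dRRM-TAP, made the tagged protein without its RRM. Both groups therefore carried the tag, and neither was free of a tagged Whi3 protein. Immunoprecipitated RNA (Cy3) was hybridised against total RNA of the same strain (Cy5) on 4 arrays, 2 per group, from 2 experiments that each gave 1 array of each group. The arrays of an experiment are called array 1 or array 2 of their group. No dye swap was made, so a dye effect stays within each ratio. The cDNA of both channels was primed with oligo-dT, and the contribution of the poly(A) tail to these values was not tested. The spotted products were PCR fragments, which do not tell the strands of a locus apart.

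Values are log2 ratios of immunoprecipitate to total RNA after background correction and loess normalization within the array, so 0 is near the middle of all genes, not the absence of RNA. Each of 51 probes had 4 spots on an array and 3 probes (MISC_RNA281055, MISC_RNA173826 and MISC_RNA680640) had 8, printed from 16 plates in 12 sectors. Over the spots of a probe on 1 array, the median SD of the log2 ratio was between 0.18 and 0.31. Spots that the scanner software had marked as bad or not found were left out. Of the 228 spots of these probes, 57.5% and 68% remained on Whi3-TAP arrays 1 and 2, and 52.6% and 65.8% on Whi3-dRRM-TAP arrays 1 and 2. For all yeast spots the shares were 79.8% and 86.5%, against 46.4% and 76.7%. The median local background of the immunoprecipitate channel was 569 and 395 on the Whi3-TAP arrays, against 1644 and 1623 on the Whi3-dRRM-TAP arrays. The probe for WHI3, which may lie outside the deleted RRM and so does not check the labels, had a net log ratio of 0.20 ± 0.02.

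A value on all 4 arrays was had for 36 of the 54 probes (66.7%), against 74.9% of all gene probes. A further 5 had values on 3 arrays, 5 on 2, 5 on 1 and 3 on none (MISC_RNA297724, MISC_RNA411229 and MISC_RNA431125). Since a spot had to be found to give a value, the 36 lean towards RNAs with signal, and they are not the full set. The other 18 probes, described further on, gave 30 single values. Precision is limited by the number of arrays, and each SD is over 2 arrays or 2 experiments.

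Most of these RNAs had a higher ratio of immunoprecipitate to total RNA than the middle of all genes, in both strains. The highest ratios were seen in the strain whose protein lacked its RRM. No strain without a tagged protein was measured, so RNA held by the protein cannot be told apart from RNA held by beads or tag. The median ratio over the 36 probes was 1.41 and 0.95 on Whi3-TAP arrays 1 and 2, and 2.21 and 2.55 on Whi3-dRRM-TAP arrays 1 and 2. Over the 4258 coding probes measured the same way, the medians on all 4 arrays were between -0.01 and 0.05. The ratio was above 0 on both Whi3-TAP arrays for 31 of the 36 probes (41.5% of the 4295 genes measured on every array) and on both Whi3-dRRM-TAP arrays for 35 (39.1%). The exceptions with Whi3-TAP were MISC_RNA61352, MISC_RNA173826, MISC_RNA716117, MISC_RNA856708 and MISC_RNA89208, and with Whi3-dRRM-TAP only MISC_RNA89208.

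**Figure D1:**
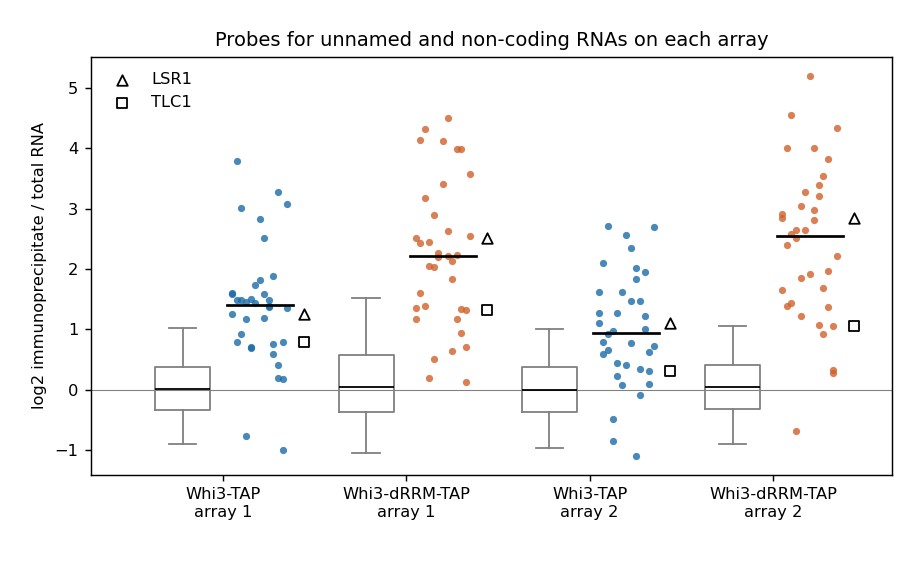
Log2 ratio of immunoprecipitate to total RNA (vertical axis) on each of the 4 arrays. Points are the 36 probes for unnamed and non-coding RNAs, with LSR1 and TLC1 also as a triangle and a square, thick lines are their medians (1.41, 2.21, 0.95 and 2.55 from left to right), and boxes show the quartiles of the 4258 coding probes with whiskers from the 5th to the 95th percentile.

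In the limma test against 0, 17 of the 36 probes passed as higher with Whi3-TAP after Benjamini-Hochberg adjustment over all genes (10.4% of all genes) and 0 as lower (8.94%). Before adjustment, 25 had a higher (19.1% of all genes) and 1 a lower ratio (17.2%) at p under 0.05. With Whi3-dRRM-TAP 30 probes passed as higher (13.6% of all genes) and 0 as lower (9.22%), and the unadjusted counts were 33 (23.5%) and 0 (16.6%). The Whi3-TAP count was 0 without either of the Whi3-TAP arrays, as it was for all genes. It was 28 of 38 probes without Whi3-dRRM-TAP array 1 (19.9% of all genes) and 29 of 36 without array 2 (22.9%), so calls were more frequent among all genes too. The mean ratio ranged from -0.81 to 2.94 with Whi3-TAP, with a median of 1.11, and from -0.25 to 4.44 with Whi3-dRRM-TAP, with a median of 2.40. Of the 20 genes with the highest Whi3-dRRM-TAP ratio, 16 were among these probes, as were 6 of the 20 with the highest Whi3-TAP ratio (0.466% of genes in each case). Of the 100 highest, 26 and 12 were (2.33%). The probes' mean ratios in the 2 groups had Pearson r = 0.87 and Spearman rho = 0.75 across the 36 probes, against r = 0.42 and rho = 0.39 across all genes. This is a description, since the points share the same 4 arrays and were measured in the same spots.

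LSR1, the U2 RNA, had the higher ratios of the pair with a known role, in both groups. It had log2 ratios of 1.26 and 1.10 on Whi3-TAP arrays 1 and 2, and of 2.51 and 2.85 on Whi3-dRRM-TAP arrays 1 and 2. Both Whi3-dRRM-TAP values lay above both Whi3-TAP values. The mean was 1.18 ± 0.11 with Whi3-TAP, or 2.27-fold over total RNA, and 2.68 ± 0.24 with Whi3-dRRM-TAP, or 6.41-fold, and both passed in limma (adjusted p = 0.0143 and 0.00405). It stood at rank 143 among genes ordered from the highest Whi3-TAP ratio and at rank 18 from the highest Whi3-dRRM-TAP ratio. Its immunoprecipitate signal was above background on all 4 arrays, and total RNA on all but Whi3-dRRM-TAP array 1. No pixel of its median spot was saturated in either channel.

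The telomerase RNA was less far from the middle of all genes. TLC1 had ratios of 0.79 and 0.31 on Whi3-TAP arrays 1 and 2, and of 1.32 and 1.06 on Whi3-dRRM-TAP arrays 1 and 2, and again the groups did not overlap. The mean of 1.19 ± 0.18 with Whi3-dRRM-TAP (2.27-fold) passed in limma (adjusted p = 0.0161), and that of 0.55 ± 0.34 with Whi3-TAP (1.46-fold) did not (adjusted p = 0.0946). Its signal was above background on the same arrays and channels as that of LSR1, with no saturated pixels. In the deposited value table, where LSR1 and TLC1 were the only ones of these probes analysed, the Whi3-TAP and Whi3-dRRM-TAP ratios were 1.23 and 2.86 for LSR1 and 0.59 and 1.32 for TLC1. All genes had medians of 0.16 and 0.66 there, so 0 is not the middle of all genes in those values.

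The largest ratios belonged to MISC_RNA probes. MISC_RNA558652 had 3.01 and 2.70 on the Whi3-TAP arrays and 4.33 and 4.55 on the Whi3-dRRM-TAP arrays, with means of 2.86 ± 0.22 and 4.44 ± 0.16 (limma adjusted p = 0.00449 and 0.00175). MISC_RNA381541 had 3.08 and 2.69, against 3.57 and 4.33, with means of 2.88 ± 0.28 and 3.95 ± 0.54. MISC_RNA898986 had 3.27 and 1.95, against 3.99 and 3.82, with means of 2.61 ± 0.93 and 3.91 ± 0.12. In these 3 probes both Whi3-dRRM-TAP values exceeded both Whi3-TAP values. The reference channel was weak for the latter pair, since total RNA was above background only on array 2 of each group, and it was at background on Whi3-dRRM-TAP array 1 for MISC_RNA558652. On Whi3-TAP array 2, 56% of the pixels of the median spot of MISC_RNA558652 were saturated in the immunoprecipitate, so that value is limited by the scanner.

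A further pair had total RNA above background on no array. Their ratios rest on a reference signal at background, so a fold with a raised reference, called a floored fold, is given beside them. A floored fold sets the mean immunoprecipitate signal of a group, scaled between arrays by quantiles of the average intensity, against a floor. The floor is the lowest total RNA signal found above background for any gene on each array, or the probe's own where higher. The limit of background at the probe's own spots may be higher, so a floored fold is not a strict lower bound. MISC_RNA832327 had 3.79 and 2.10 on the Whi3-TAP arrays and 4.14 and 4.01 on the Whi3-dRRM-TAP arrays. By the bounds it stood at least 4.96-fold and at least 7.49-fold over total RNA. MISC_RNA38812 had 2.83 and 2.56, against 3.41 and 5.19, with floored folds of 2.66 and 4.91. Their means were 2.94 ± 1.19 and 4.08 ± 0.10, and 2.70 ± 0.19 and 4.30 ± 1.26, all past the limma test (adjusted p = 0.0122, 0.00738, 0.0158 and 0.00738). In both probes the Whi3-dRRM-TAP values were above the Whi3-TAP values, and the arrays of a group differed by over 1 log2 unit in 1 of the groups. Of the 36 probes, 15 had no total RNA above background on the Whi3-TAP arrays (29.3% of all genes) and 16 had none on the Whi3-dRRM-TAP arrays (35.2%). For 12 and 14 of these a floored fold above 1 could be given, from 1.04 to 4.96 and from 1.08 to 7.49. The median floored folds were 1.28 and 1.72. Floored folds below 1 were left out, so the low end of each range was set by that limit. The share of all genes with such a value was not counted.

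**Figure D2:**
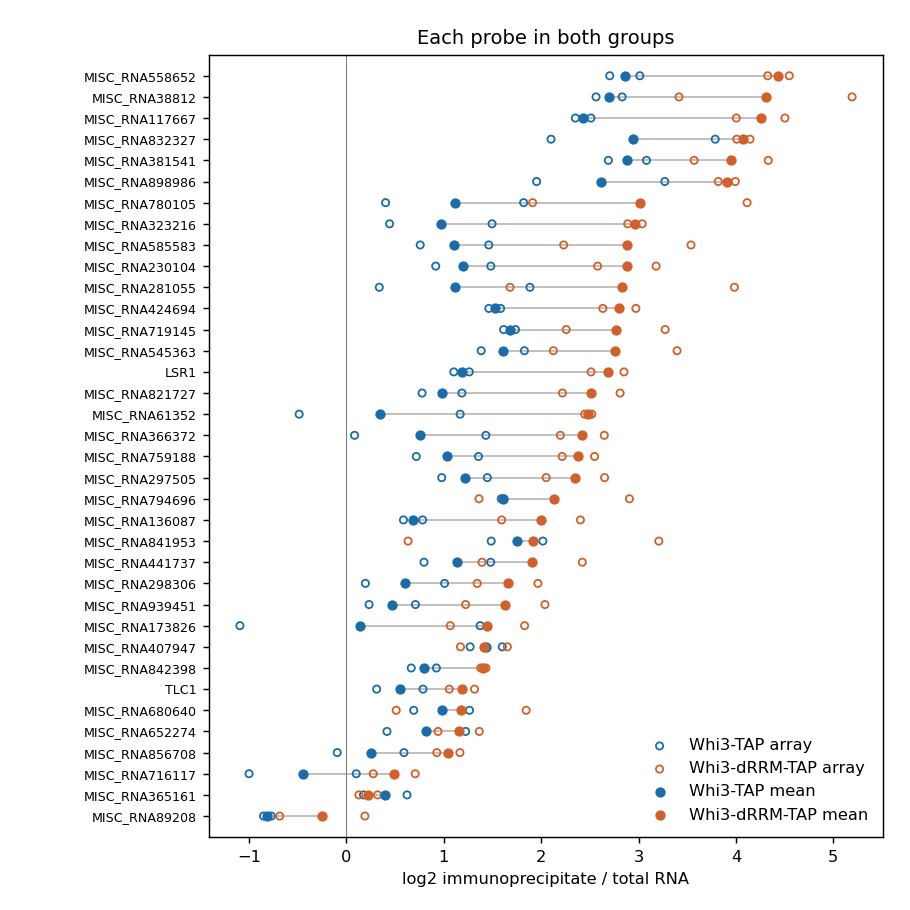
Log2 ratio of immunoprecipitate to total RNA (horizontal axis) for each of the 36 probes, ordered by the Whi3-dRRM-TAP mean. Open circles are arrays, filled circles are means of 2 arrays and grey lines join the group means, with MISC_RNA558652 at the top (2.86 and 4.44) and MISC_RNA89208 at the bottom (-0.81 and -0.25).

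In the immunoprecipitate the median signal of the 36 probes was 5.84 and 27.8 background SDs on Whi3-TAP arrays 1 and 2, and 2.63 and 8.51 on Whi3-dRRM-TAP arrays 1 and 2. For all genes the medians were 4.36 and 15.5, and 1.34 and 2.35, so the median of these probes stood higher on every array. In total RNA their medians were 1.50 and 2.88, and 0.547 and 2.14, against 2.88 and 2.70, and 1.13 and 2.65 for all genes, so they stood lower on 3 of the arrays and slightly higher on Whi3-TAP array 2. A probe counted as above background where its foreground, averaged over spots, stood more than 2 background SDs over the local background. By that rule 30 and 36 of the 36 immunoprecipitate signals were above background with Whi3-TAP on arrays 1 and 2 (89% and 99.3% of all genes), and 21 and 32 with Whi3-dRRM-TAP (16.6% and 65.5%). For total RNA there were 15 and 21 (66.3% and 64.7% of all genes), and 7 and 20 (26.3% and 64.5%). On no array was total RNA above background for 14 of the 36 (27.2% of all genes). On all 4 arrays it was so for 7 (25.9%), and the immunoprecipitate for 20 (15.2%), while the immunoprecipitate was at background on every array for 0 (0.373%). MISC_RNA173826, MISC_RNA716117 and MISC_RNA89208 had an immunoprecipitate signal at background on both Whi3-dRRM-TAP arrays (33.4% of all genes).

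**Figure D3:**
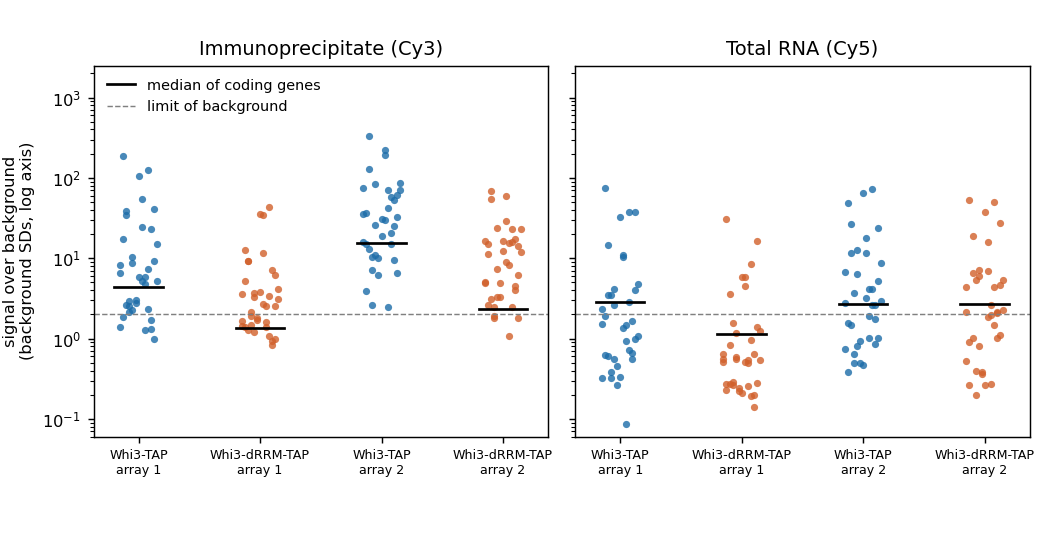
Signal of the 36 probes in the immunoprecipitate (left) and in total RNA (right) on each array, in background SDs on a log axis. Black lines are medians of the coding probes and the dashed line marks 2 background SDs, which all 36 points exceed only in the immunoprecipitate of Whi3-TAP array 2.

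The ratios were also grouped by the signal in total RNA. For the 22 probes with total RNA above background on at least 1 array, the median ratio was 1.11 (Whi3-TAP) and 2.72 (Whi3-dRRM-TAP), against -0.06 and -0.05 for the 3106 coding probes chosen in the same way. For the 14 with total RNA at background everywhere the medians were 0.89 and 2.07, against 0.15 and 0.39 for 1152 coding probes. In 7 probes both channels were above background on all 4 arrays (11.6% of all genes), and their medians were 1.14 and 2.83, against -0.08 and 0.15 for 492 coding probes. Of these 7, 3 had immunoprecipitate spots with at least 50% of the pixels saturated on some array, and the other 4 had medians of 1.36 and 2.84. The 131 probes for 3′ UTRs, which also lie outside open reading frames, had medians of -0.07 in both groups.

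The net log ratio, Whi3-TAP minus Whi3-dRRM-TAP within each experiment, asks how much more of an RNA came down, relative to the bulk of RNA, when the RRM was present. It was below 0 for nearly all of these RNAs. The median was -0.79 in experiment 1 and -1.54 in experiment 2, and the median of the means was -1.16, with quartiles of -1.59 and -0.74 and a range from -2.14 to 0.17. Without Whi3-dRRM-TAP array 1 it was -1.25. Coding probes had a median of -0.08 and the 3′ UTR probes 0.05. The value was negative in both experiments for 31 of the 36 probes (41.2% of all genes) and positive in both for 1, MISC_RNA365161 (32.4%). Both Whi3-TAP ratios lay below both Whi3-dRRM-TAP ratios for 27 probes (34.2% of all genes) and above them for 0 (26.6%).

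No probe passed the limma test with the experiment as a block, in either direction, and neither did any other gene (0% of all genes, smallest adjusted p = 0.0678). At an unadjusted p under 0.05 the same test had 27 of the 36 as lower (16.5% of all genes) and 0 as higher (12.8%). Without the block, limma passed 3 as lower (1.42% of all genes), namely MISC_RNA117667, MISC_RNA558652 and LSR1 (adjusted p = 0.0384, 0.0420 and 0.0426), and none as higher. When the prior of the blocked test followed intensity, 14 passed as lower (5.87% of all genes) and 0 as higher (6.4%). The study's limit, a fixed number of SDs from the mean over genes, lay at 1.05 and at -1.21 on the lower side. Of the 36 probes 0 lay above it (5.01% of all genes) and 17 below its mirror image (5.05%). Across the 36 probes the net log ratios of the 2 experiments had r = 0.27 and rho = 0.25, against r = 0.63 and rho = 0.62 across all genes.

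**Figure D4:**
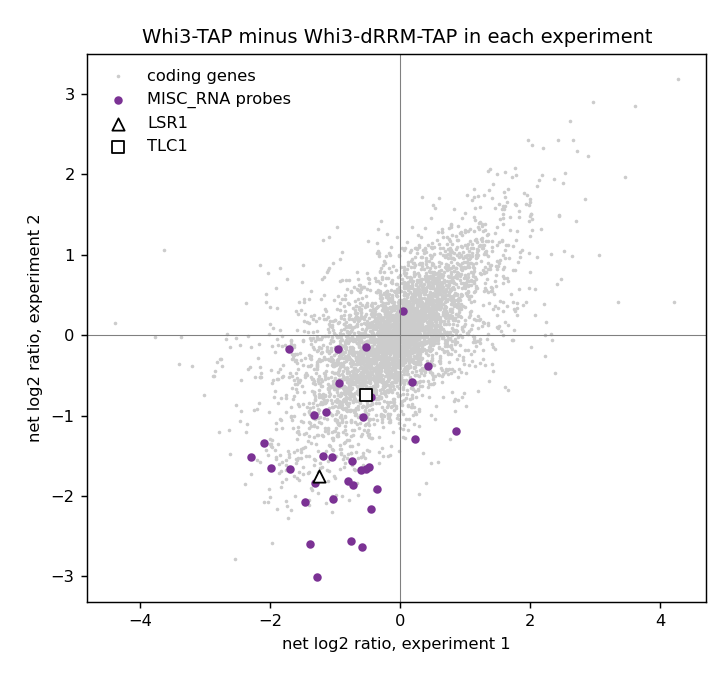
Net log2 ratio in experiment 1 (horizontal axis) against experiment 2 (vertical axis). Purple points are MISC_RNA probes, of which 1 lies above 0 in both experiments, the triangle and the square are LSR1 (-1.25 and -1.75) and TLC1 (-0.53 and -0.75), and grey points are 4258 coding probes.

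LSR1 had a mean net log ratio of -1.50 ± 0.35 (limma adjusted p = 0.0706), at rank 107 among 4295 genes from the lowest, and TLC1 one of -0.64 ± 0.15 (adjusted p = 0.145), at rank 782, or -0.40 without Whi3-TAP array 2. In the deposited value table the values were -1.62 and -0.72, where all genes had a median of -0.48. There LSR1 passed as lower in limma (adjusted p = 0.0099), as did 11.5% of all genes. The reference annotation named SWC5 and COQ21 as the genes on either side of LSR1, and SNR161 and CSG2 beside TLC1, with no gene overlapping either. SWC5, which encodes a subunit of the SWR1 chromatin remodeler, had a net log ratio of -0.60 ± 0.12, with ratios of -0.30 ± 0.28 (Whi3-TAP) and 0.30 ± 0.16 (Whi3-dRRM-TAP). CSG2, a gene of sphingolipid synthesis, had values on 2 arrays only.

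The lowest mean net log ratio of all these probes was that of MISC_RNA61352, whose ratios were 1.17 and -0.49 with Whi3-TAP and 2.45 and 2.52 with Whi3-dRRM-TAP. Its mean was -2.14 ± 1.22 (-1.28 and -3.004), and it ranged from -2.97 without Whi3-TAP array 1 to -1.32 without Whi3-TAP array 2. It rested on 1 or 2 spots an array and its total RNA was above background on none, so the size of this value is not well measured. MISC_RNA323216 followed at -1.99 ± 0.85, with ratios of 1.49 and 0.44 against 2.89 and 3.04. In both probes Whi3-TAP array 2 held the lowest of the 4 ratios.

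MISC_RNA117667 varied least among the 6 lowest, and both of its channels were above background on every array. Its ratios were 2.51 and 2.35 with Whi3-TAP and 4.50 and 4.00 with Whi3-dRRM-TAP, so the groups were well apart. The means were 2.43 ± 0.11 and 4.25 ± 0.35, or 5.39-fold and 19.1-fold over the middle of all genes (limma adjusted p = 0.00827 and 0.00187). The net log ratio was -1.82 ± 0.24, with an adjusted p of 0.0678 with the block. MISC_RNA585583 had ratios of 0.76 and 1.46 against 2.23 and 3.54 and a net log ratio of -1.77 ± 0.43, and here both arrays 2 were the higher of their group. Without Whi3-dRRM-TAP array 2 the net log ratio of MISC_RNA585583 was -1.12.

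MISC_RNA780105 and MISC_RNA281055 had almost the same values on every array. MISC_RNA780105 had ratios of 1.82 and 0.40 with Whi3-TAP and of 4.11 and 1.91 with Whi3-dRRM-TAP, and MISC_RNA281055 had 1.88 and 0.34, and 3.98 and 1.68. Their net log ratios were -1.90 ± 0.56 and -1.72 ± 0.54. These moved to -0.80 and -0.57 without Whi3-dRRM-TAP array 1 and to -3.003 and -2.87 without Whi3-dRRM-TAP array 2, so their size rested on which of these arrays was used. Both had their highest ratios on the arrays of experiment 1, where at most 4.5% of the pixels were saturated. On the arrays of experiment 2, 77.5% and 83% of the immunoprecipitate pixels of MISC_RNA780105 were saturated, and 86% and 90.5% of those of MISC_RNA281055. Whether the probes share sequence was not tested.

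Saturation touched 4 of the 36 probes in the immunoprecipitate (0.978% of all genes) and 0 in total RNA (0.698%), counting probes with at least 50% of the pixels of the median spot saturated. The fourth, beside MISC_RNA558652, MISC_RNA780105 and MISC_RNA281055, was MISC_RNA441737, at 13.5% and 85% on the Whi3-TAP arrays and 86% and 89.5% on the Whi3-dRRM-TAP arrays. Its net log ratio was -0.77 ± 0.25. The 32 probes below that share had a median net log ratio of -1.15. The 7 probes above background in both channels on all arrays had net log ratios of -1.90 (MISC_RNA780105), -1.82 (MISC_RNA117667), -1.72 (MISC_RNA281055), -1.68 (MISC_RNA230104), -1.28 (MISC_RNA424694), -0.77 (MISC_RNA441737) and 0.17 (MISC_RNA365161). Their median was -1.68, against -0.22 for coding probes chosen in the same way. Without the 3 saturated ones, whose values are limited by the scanner, the median of the other 4 was -1.48. MISC_RNA230104, MISC_RNA441737 and the probes listed as exceptions were named after their values were seen.

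A few probes did not follow the others. MISC_RNA365161 was bright in both channels and near the middle of all genes, with ratios of 0.17 and 0.62 with Whi3-TAP and 0.13 and 0.32 with Whi3-dRRM-TAP. Its net log ratio of 0.17 ± 0.18 (limma adjusted p = 0.604) was the highest of the 36. Under median centring both of its ratios turned negative, at -0.17 and -0.93. MISC_RNA407947 had ratios above the middle of all genes in both groups, at 1.60 and 1.27 with Whi3-TAP and 1.17 and 1.652 with Whi3-dRRM-TAP. The means of 1.43 ± 0.23 and 1.41 ± 0.34 both passed in limma (adjusted p = 0.0126 and 0.0138), while its net log ratio was 0.02 ± 0.57 (adjusted p = 0.96), from 0.43 in experiment 1 to -0.38 in experiment 2, and -0.22 under median centring. Its total RNA was at background on both arrays of experiment 1, and its immunoprecipitate on Whi3-dRRM-TAP array 1 (1.45 background SDs). In both probes the groups overlapped.

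MISC_RNA841953, MISC_RNA680640 and MISC_RNA794696 went opposite ways in the 2 experiments. MISC_RNA841953 had ratios of 1.49 and 2.02 with Whi3-TAP and of 0.63 and 3.21 with Whi3-dRRM-TAP, and its net log ratio was 0.85 in experiment 1 and -1.19 in experiment 2. For MISC_RNA680640 the net log ratios were 0.18 and -0.58, and for MISC_RNA794696 they were 0.23 and -1.29. Total RNA of these 3 was above background on no array. On Whi3-dRRM-TAP array 1 their immunoprecipitate was at background too (1.37, 1.22 and 1.67 background SDs). MISC_RNA680640 also had 1 spot on each array of experiment 1, and MISC_RNA794696 had 1 on Whi3-dRRM-TAP array 1. Their direction in experiment 1 is therefore not well measured. MISC_RNA652274 had -0.52 and -0.14, with a mean of -0.33 ± 0.27 that turned to 0.06 without background correction. On both arrays of experiment 1 its immunoprecipitate was at background (1.71 and 0.93 background SDs), with 1 spot on Whi3-dRRM-TAP array 1. At the low end of the ratios, MISC_RNA89208 was below the middle of all genes in both groups, at -0.77 and -0.85 with Whi3-TAP and 0.19 and -0.69 with Whi3-dRRM-TAP, and its net log ratio was -0.56 ± 0.56.

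Compared channel by channel between the strains, most of the net difference lay in the immunoprecipitate. With arrays scaled by quantiles of their average intensity, the median difference of the 36 probes, Whi3-TAP minus Whi3-dRRM-TAP, was -0.91 in the immunoprecipitate (-0.80 and -0.997 in experiments 1 and 2), with a range from -1.61 to 0.31. For coding probes it was -0.04. In total RNA it was 0.29 (0.12 and 0.52), with a range from -0.31 to 0.94, against 0.03 for coding probes. The difference in the immunoprecipitate was the larger in size for 33 of the 36, as it was for 71.7% of all genes. It was negative in both experiments for 32 (38.8% of all genes), while total RNA was positive in both for 15 (34.8%), and 13 probes did both (13.2%).

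In the blocked limma test of the immunoprecipitate 1 probe, MISC_RNA424694, passed as lower (0.908% of all genes) and 0 as higher (0.978%), while 26 were lower at an unadjusted p under 0.05 (14.8%). MISC_RNA424694 had a difference of -1.43 in the immunoprecipitate (-1.51 and -1.34 in experiments 1 and 2, adjusted p = 0.0493) and of -0.15 in total RNA (adjusted p = 0.76). Its ratios were 1.58 and 1.46 with Whi3-TAP and 2.63 and 2.97 with Whi3-dRRM-TAP, with no overlap. Without the block it did not pass, and the test passed 0 of the 36 and 0% of all genes.

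In total RNA 0 probes passed in limma in either direction (0% of all genes), with unadjusted counts at p under 0.05 of 11 for higher (7.47%) and 0 for lower (4.82%). LSR1 differed by -0.94 in the immunoprecipitate (adjusted p = 0.0857) and by 0.56 in total RNA (adjusted p = 0.371), and TLC1 by -0.50 and 0.13 (adjusted p = 0.217 and 0.694). In MISC_RNA780105 and MISC_RNA281055 the differences in total RNA, 0.86 and 0.75, were near in size to those in the immunoprecipitate, -1.04 and -0.97. Only MISC_RNA407947 had a positive mean difference in the immunoprecipitate, at 0.31 (0.65 and -0.02). Its value in experiment 1 rested in part on Whi3-dRRM-TAP array 1, where its immunoprecipitate was at background. The median in total RNA was -0.025 without Whi3-TAP array 2 and 0.58 without Whi3-TAP array 1, so its direction rested on 1 array. Without Whi3-dRRM-TAP array 1, which kept the smallest share of spots, it was 0.027.

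The 18 probes with values on fewer than 4 arrays are accounted for separately. Total RNA was above background on no array for any of them, and 16 of their 30 values came from 1 spot, so these values are not well measured. Of the 30 values 26 were above 0, against 50.3% of the values of all genes measured on 1 to 3 arrays. The values of these probes and of all genes were not matched for the arrays they came from. MISC_RNA61699 had 0.33 on array 1 of Whi3-TAP and -0.78 on array 2 of Whi3-dRRM-TAP. Among the 5 with values on 3 arrays, MISC_RNA348428 had -1.28 with Whi3-TAP against 2.05 and 2.10 with Whi3-dRRM-TAP, and MISC_RNA586086 had 0.81 against 2.35 and 2.53. MISC_RNA718884 had 0.36 and 1.60 against 2.13, and MISC_RNA298553 had 0.23 and 0.80 against 0.93. MISC_RNA259489 had 0.76 against 0.71 and 0.98.

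With the marked spots kept, all 54 probes had a value on every array. Their median ratios were then 0.59 (Whi3-TAP) and 1.49 (Whi3-dRRM-TAP), and the median net log ratio was -0.75, each nearer to 0 than over the 36. In limma 25 of the 54 passed as higher with Whi3-TAP (14.4% of all genes), 47 as higher with Whi3-dRRM-TAP (14.2%), and 30 as lower in net log ratio (9.01%).

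Messenger RNAs for proteins that work with U2 or telomerase RNA, or in nuclear RNA surveillance, were taken from lists put together for this comparison. Whether any of these proteins acts on the MISC_RNA transcripts was not tested. In the blocked limma test of the net log ratio 0 members of any list passed. For the ratios, the shares of all genes that passed were 10.4% (higher) and 8.94% (lower) with Whi3-TAP, and 13.6% and 9.22% with Whi3-dRRM-TAP. Of 13 genes for U2 snRNP proteins 6 were measured, with medians of 0.00 (Whi3-TAP) and 0.44 (Whi3-dRRM-TAP) and a median net log ratio of -0.50. MSL1, a U2 snRNP protein, had -0.97 ± 0.53 and HSH155, which holds the branch site in that particle, -0.63 ± 0.31. PRP21 had -0.32 ± 0.02 and PRP11 0.39 ± 1.09. Total RNA was above background on no array for MSL1, HSH155 and PRP21, and on 3 for PRP11. With Whi3-dRRM-TAP 1 of the 6 passed as higher, and with Whi3-TAP 0 in either direction.

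Of 7 genes for Sm proteins, which form the ring on U2 and on telomerase RNA, 6 were measured, with a median net log ratio of 0.05. SMX2 had -1.86 ± 0.04 and SMD1 -1.67 ± 0.26, while SMX3 had 1.01 ± 0.16 and SMD2 0.69 ± 0.10. Total RNA was above background on 4 arrays for SMX2 and SMD1, on 2 for SMX3 and on no array for SMD2. With Whi3-dRRM-TAP 2 passed as higher and 1 as lower, and with Whi3-TAP 0 in either direction. The members of this list thus lay on both sides of 0.

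Of 13 genes for telomerase and telomere proteins 9 were measured, with medians of -0.32 (Whi3-TAP) and 0.45 (Whi3-dRRM-TAP) and a median net log ratio of -0.30. RIF1 and RIF2, which limit telomere length, had -1.52 ± 1.74 and -1.50 ± 0.58. In both, the immunoprecipitate was above background on 1 array and total RNA on no array, so these values are not well measured. CDC13, which binds telomere ends, had 0.43 ± 0.93, and EST1, a telomerase subunit, 0.07 ± 0.12. Total RNA of EST1 was above background on no array either. With Whi3-dRRM-TAP 1 passed as higher and 1 as lower.

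Of 24 genes of nuclear RNA surveillance 19 were measured, with a median net log ratio of -0.14. RRP42 and RRP40, subunits of the exosome, had 1.69 ± 0.20 and 1.54 ± 0.79. RRP6, the nuclear exosome nuclease, had -0.56 ± 0.05, and AIR2, of the TRAMP complex that marks RNAs for the exosome, -0.57 ± 0.26. Total RNA of AIR2 was above background on no array. With Whi3-TAP 3 passed as higher and 1 as lower, and with Whi3-dRRM-TAP 1 each way, from 19 measured genes. The highest median ratio of the 4 lists in either group was 0.45, where the 36 probes had 1.11 and 2.40.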

How the data were processed

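RNA from Whi3-TAP and Whi3-dRRM-TAP immunoprecipitates was measured against total RNA on 4 two-colour arrays of PCR products. The deposited scanner files hold, per the file headers, intensity values per spot (mean foreground, median local background and its SD in each channel), the percent of saturated pixels, and a spot flag score. The authors scanned with GenePix software and deposited, beside these, a log2 ratio per spot, used here only to check the direction, and a table of log2 ratios normalized by loess per probe, used as an alternative. The columns of that table had medians of 0.25 and 0.21 for Whi3-TAP arrays 1 and 2 and of 1.08 and 0.52 for Whi3-dRRM-TAP arrays 1 and 2, and r between 0.762 and 0.949 with the log2 ratios computed here. Its direction and scale follow from that comparison, and how it was centred is not known. No genome build was named, so no positions are given.

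Spots with a negative flag were left out. Intensities were corrected with normexp (offset 50), normalized with global loess (span 0.3, 4 iterations) in limma 3.58.1 (R 4.3.3), and spots of a probe were averaged. Genes with values on all 4 arrays (4295, 3′ UTR probes kept apart) entered lmFit and eBayes, 2-sided, with Benjamini-Hochberg adjustment at 0.05 over all of them. The net log ratio and the channel differences (Aquantile between arrays) had the experiment as a block, since the labels number the replicates and, per the study's methods, the whole experiment was run independently on separate occasions. Deviations of same-numbered arrays had r = 0.218 across genes. The block left 1 residual degree of freedom beside a prior of 3.17. The ratios within a group had no block. The script was tested on simulated data. Probes were named by rule: LSR1, TLC1, the 6 highest and 6 lowest in net log ratio, and the 5 highest in each group's ratio. In each list of genes the 2 highest and 2 lowest were named. The probes and lists were chosen with earlier results of these data known. Alternatives changed the background correction, the normalization, the filters, the block, the prior or the arrays used. Figures were drawn with matplotlib 3.10.9.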

Additional observations from a re-analysis of the deposited data

How the results depend on the processing

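Medians over the probes kept their direction under every alternative, except that of total RNA, which ranged from -0.025 to 0.58 with 1 array left out. With 1 array left out the median net log ratio ranged from -1.41 to -0.95, that of Whi3-TAP from 0.87 to 1.38, that of Whi3-dRRM-TAP from 2.21 to 2.46 and that of the immunoprecipitate difference from -0.95 to -0.65. Probes that passed then numbered 0 to 19 (16 and 19 without Whi3-dRRM-TAP arrays 1 and 2, with 5.01% and 21% of all genes), 0 to 29, 21 to 34 (1.59% and 13.1% of all genes) and 0 to 2 (2.35%), with total RNA at 0. Without Whi3-dRRM-TAP array 2, MISC_RNA841953 had a net log ratio of 1.12, which rested on Whi3-dRRM-TAP array 1, where both of its channels were at background. In these fits a group with 1 array left was assumed to have the spread of its counterpart. Without background correction the medians were -0.56 (net), 1.39 (Whi3-dRRM-TAP) and -0.52 (immunoprecipitate), and 8 probes passed as lower in net log ratio (7.75% of all genes), 27 as higher with Whi3-TAP (18.1%), 3 as higher in total RNA (1.21%) and 20 as lower in the immunoprecipitate (9.85%). Probes that passed as lower in net log ratio and in the immunoprecipitate numbered 2 and 14 under median centring (1.07% and 6.29% of all genes), 30 and 30 with marked spots kept (9.01% and 6.9%), 3 and 4 without dim genes (1.4% and 1.93%), 3 and 0 with no replicate block (1.42% and 0%), and 14 and 22 where the prior followed intensity (5.87% and 6.73%), which passed 4 in total RNA (0.838%). In the immunoprecipitate 12 passed with print-tip loess (3.93%), 3 without saturated spots (1.57%), and 0 with background subtraction or with these probes at weight 0 in loess. With marked spots kept the medians were 0.59 (Whi3-TAP) and 1.49 (Whi3-dRRM-TAP), and 47 of the 54 probes passed with Whi3-dRRM-TAP (14.2%). Over the 7 probes above background in both channels throughout, an alternative added after seeing the data, the Whi3-dRRM-TAP median was 2.83. Of these probes 6 passed as higher with Whi3-dRRM-TAP (13.6% of all genes) and 3 with Whi3-TAP (10.4%). The shares among genes of like brightness were not counted.

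Of single probes, MISC_RNA365161 had ratios of -0.17 and -0.93 under median centring. MISC_RNA407947 had a net log ratio of -0.22 under median centring and -0.062 with marked spots kept, and MISC_RNA652274 had 0.061 without background correction. With 1 array left out, net log ratios ranged from -0.049 (without Whi3-TAP array 2) to 0.40 for MISC_RNA365161 and from -0.22 (without Whi3-dRRM-TAP array 1) to 0.26 for MISC_RNA407947. They ranged from -1.46 to 1.12 (without Whi3-dRRM-TAP array 2) for MISC_RNA841953, from -0.87 to 0.47 (the same array) for MISC_RNA680640, from -1.30 to 0.24 (the same array) for MISC_RNA794696, and from -0.74 to 0.072 (without Whi3-TAP array 1) for MISC_RNA652274. The Whi3-TAP ratio of MISC_RNA61352 ranged from -0.49 (without array 1) to 1.17. Median centring moved the median net log ratio of all genes to -0.21. The causes were not tested. With 4 arrays, and with total RNA at background for 14 of the 36 probes, ratios of single probes stay imprecise.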

Other observations

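A pair of other probes had no open reading frame name and stood outside the rule. SNR13, a small nucleolar RNA, had values on 3 arrays, with ratios of 1.97 and 2.08 on the Whi3-TAP arrays and 2.68 on Whi3-dRRM-TAP array 2, and its total RNA was above background on none. MRNA280777 had ratios of 0.20 and -0.27 with Whi3-TAP and of 0.54 and 1.27 with Whi3-dRRM-TAP, and a net log ratio of -0.94 ± 0.85 (limma adjusted p = 0.18). Both were chosen with their values known.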
